A study of Mus musculus with 8 samples.

Results

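The transcripts of 7 genes were followed in mouse peritoneal macrophages: the interleukin-6 (IL-6) family cytokines Il6, Lif and Osm, the colony stimulating factors Csf1, Csf2 and Csf3, and Csf1r, the receptor for Csf1. Members were taken by gene symbol from the rows of the array that carried a single symbol, with the brightest row kept where a gene had several. Each of the 7 had 1 row, and they stood among 19938 genes measured in the same way. Macrophages were washed from the peritoneum of wild-type C57/Bl6 mice, and the cells of 10 mice were pooled. After a night in RPMI medium with FCS they were left untreated (basal) or given HRG, the plasma protein histidine-rich glycoprotein in recombinant form, at 1 µg/ml. RNA was taken at 6 h and at 24 h, which made 4 groups of 2 samples: Basal 6 h, HRG 6 h, Basal 24 h and HRG 24 h. All groups share the strain, the pool and the night in culture, and the labels name no further stimulus, so basal means cultured cells and not cells fresh from the animal. No vehicle or endotoxin control is named either, so HRG itself and anything else in its preparation cannot be told apart.

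Each of the 8 samples was read on its own Affymetrix array, and levels are log2 values after the array normalization RMA. Within groups the replicate arrays correlated at r = 0.996 to 0.998 over 28853 rows, which are not independent, and the array medians lay between 7.18 and 7.29. All replicates came from 1 pool of cells, so p-values reflect no more than the scatter among these arrays, possibly technical, and 2 arrays a group limit the precision. Differences, of HRG from basal or of 24 h from 6 h, are in log2 units with the standard error of a limma fit to all 8 arrays. "Rose" and "fell" are kept for genes with a Benjamini-Hochberg adjusted p under 0.05 over the 19938 genes. A level of 1 gene cannot be set against that of another on these arrays, because each row has its own probes. In such bulk samples, fewer cells of a type and less RNA per cell cannot be told apart.

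IL-6, leukaemia inhibitory factor (Lif) and oncostatin M (Osm) signal through receptor complexes that contain the shared chain gp130, encoded by Il6st, and act mainly through JAK kinases and the transcription factor STAT3. Csf1 (M-CSF) keeps macrophages alive through the receptor kinase Csf1r, while Csf2 (GM-CSF) and Csf3 (G-CSF) act on myeloid cells and granulocytes through receptors coupled to JAK2 and the STAT factors. In activated macrophages Il6, Csf2 and Csf3 are inducible genes with short-lived messages, controlled by NF-κB, AP-1 and C/EBP factors and by RNA-binding proteins that speed decay.

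The arrays carried the markers of the labelled cell type: all 8 macrophage markers were measured, and Adgre1 (F4/80), Cd68 and Lyz2 had mean levels of 13.4, 13.1 and 13.8 in Basal 6 h samples. The summed macrophage level was 15.58 to 15.66 in Basal 6 h, 15.65 to 15.73 in HRG 6 h, 15.73 to 15.73 in Basal 24 h and 15.92 to 15.93 in HRG 24 h samples. Mertk rose with HRG at 6 h (by 0.81), and Mertk and Fcgr1 rose at 24 h. The Mertk call at 6 h was lost without HRG 6 h replicate 2. At 24 h it was lost without either Basal 24 h array or HRG 24 h replicate 1, while that of Fcgr1 held with each array left out. Markers of other cells of the peritoneum were read as well, as sums in which a bright row counts most. In the same order of groups, 5 of 6 B cell markers were measured with summed levels of 11.93 to 11.98, 11.54 to 11.57, 10.99 to 11.35 and 11.62 to 11.89, and 6 of 7 T and NK cell markers with 10.04 to 10.40, 9.54 to 9.68, 9.82 to 10.33 and 10.26 to 10.40. Both were lower with HRG at 6 h, as were the cytokines described next, and 1 gene of each list fell there (Cd79b by 0.59 and Cd3g by 1.11). Both calls were lost without any 1 of the 6 arrays outside Basal 24 h. The 6 mast cell markers summed to 12.74 to 12.87, 12.65 to 12.74, 12.22 to 12.55 and 12.79 to 13.10. The 9 mesothelial and fibroblast markers summed to 11.71 to 11.80, 11.57 to 11.73, 11.87 to 12.15 and 11.81 to 11.83. That sum reflects mainly Dcn, at a mean of 11.19 in Basal 6 h samples. The next highest was Col1a1 at 8.25, and the mesothelial marker Msln had 7.04. Of the B cell and mast cell lists, 3 and 2 genes rose with HRG at 24 h. Without HRG 24 h replicate 1 both counts were 0, without Basal 24 h replicate 2 only 1 B cell gene rose, and without Basal 24 h replicate 1 no mast cell gene did. The mesothelial and fibroblast, neutrophil, eosinophil (3 of 4 measured) and endothelial lists had 0 calls by limma for HRG at either time, with 0, 0, 0 and 1 unadjusted p under 0.05 at 6 h and 3, 1, 0 and 0 at 24 h. Over all genes, 2194 of 19938 had an unadjusted p under 0.05 at 6 h and 2531 at 24 h. Summed levels lay between 9.34 and 9.94 for neutrophils, 8.17 and 8.71 for eosinophils and 8.03 and 8.42 for endothelial cells. The part of these cells in the differences of the members was not tested.

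At 6 h the question was what HRG altered early. Il6, Csf1 and Csf2 fell and no member rose. The other 4 did not pass the threshold. Across all genes, 0.818% fell and 0.431% rose in this comparison. The median difference was -0.67 over the 7 members and 0.019 over all genes.

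Il6 encodes interleukin-6, the family's founding inflammatory cytokine. Its level was 12.16 and 11.79 on the Basal 6 h arrays and 11.15 and 10.93 on the HRG 6 h arrays. Both treated arrays lay below both untreated ones. The means were 11.98 ± 0.26 and 11.04 ± 0.15 (SD, n = 2), a difference of -0.94 ± 0.13 (95% interval -1.23 to -0.65). Il6 was thus 1.92-fold lower with HRG (limma, adjusted p = 0.00705). The call was lost in 1 of 17 alternatives, the fit without HRG 6 h replicate 2, at -0.83 and adjusted p = 0.0983.

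Csf1 encodes the growth factor on which most tissue macrophages depend. It read 10.10 and 10.05 on the Basal 6 h arrays and 9.50 and 9.23 on the HRG 6 h arrays. The untreated pair lay close together and above both treated arrays. Csf1 changed by -0.71 ± 0.11 and was 1.64-fold lower with HRG (limma, adjusted p = 0.00838). Without Basal 6 h replicate 1 the difference was -0.69 with adjusted p = 0.0501, and without HRG 6 h replicate 2 it was -0.58 with adjusted p = 0.124, so the call rests on both of these arrays.

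Csf2 encodes GM-CSF, a cytokine of inflamed tissue. Its levels were 8.54 and 8.23 in Basal 6 h samples against 7.63 and 7.27 in HRG 6 h samples, again without overlap. The fall of 0.94 ± 0.19 on the log2 scale was as large as that of Il6 but less precise (1.92-fold lower, limma, adjusted p = 0.0388). It lost its call in 7 of 17 alternatives. These were renewed quantile normalization (-0.90, adjusted p = 0.0623), testing every row of the array (adjusted p = 0.0953) and 5 fits that left out an array. Of the latter, the fit without Basal 6 h replicate 1 gave -0.78 (adjusted p = 0.214). Leaving out HRG 6 h replicate 1 gave -1.12 (adjusted p = 0.0752), and leaving out its replicate 2 gave -0.76 (adjusted p = 0.362). Without either HRG 24 h array the difference stayed at -0.94 with adjusted p = 0.0767.

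Csf3 encodes G-CSF, which drives granulocyte production. It read 9.13 and 8.89 in Basal 6 h and 8.34 and 8.34 in HRG 6 h samples, so the pairs did not overlap. The difference was -0.67 ± 0.19 with adjusted p = 0.147, which did not pass. It passed where only the 4 arrays compared entered the fit (adjusted p = 0.0337) and where either Basal 24 h array was left out (adjusted p = 0.0113 in both cases). Il6, Csf1, Csf2 and Csf3 were thus the 4 members with both HRG arrays below both basal arrays at 6 h, a pattern that 18.3% of all genes showed.

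Lif, Osm and Csf1r did not pass at 6 h. Lif read 7.08 and 7.13 in Basal 6 h and 7.35 and 7.13 in HRG 6 h samples, which overlapped (0.13 ± 0.10, 95% interval -0.09 to 0.35, adjusted p = 0.728). Osm, a macrophage product that acts on stromal and endothelial cells, read 10.08 and 9.87 against 10.10 and 9.82 (-0.02 ± 0.13, 95% interval -0.30 to 0.27). In the RefSeq annotation Lif and Osm neighbour each other. The receptor gene Csf1r read 13.08 and 13.09 without HRG and 13.06 and 13.08 with it. Its difference of -0.01 ± 0.093 had a 95% interval of -0.22 to 0.19. That interval reflects only scatter among these arrays. The Csf1r difference was not tested against the -0.71 of its ligand Csf1, which other probes read. How far a row as bright as 13.06 to 13.27 can show a difference was not tested either.

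**Figure D1:**
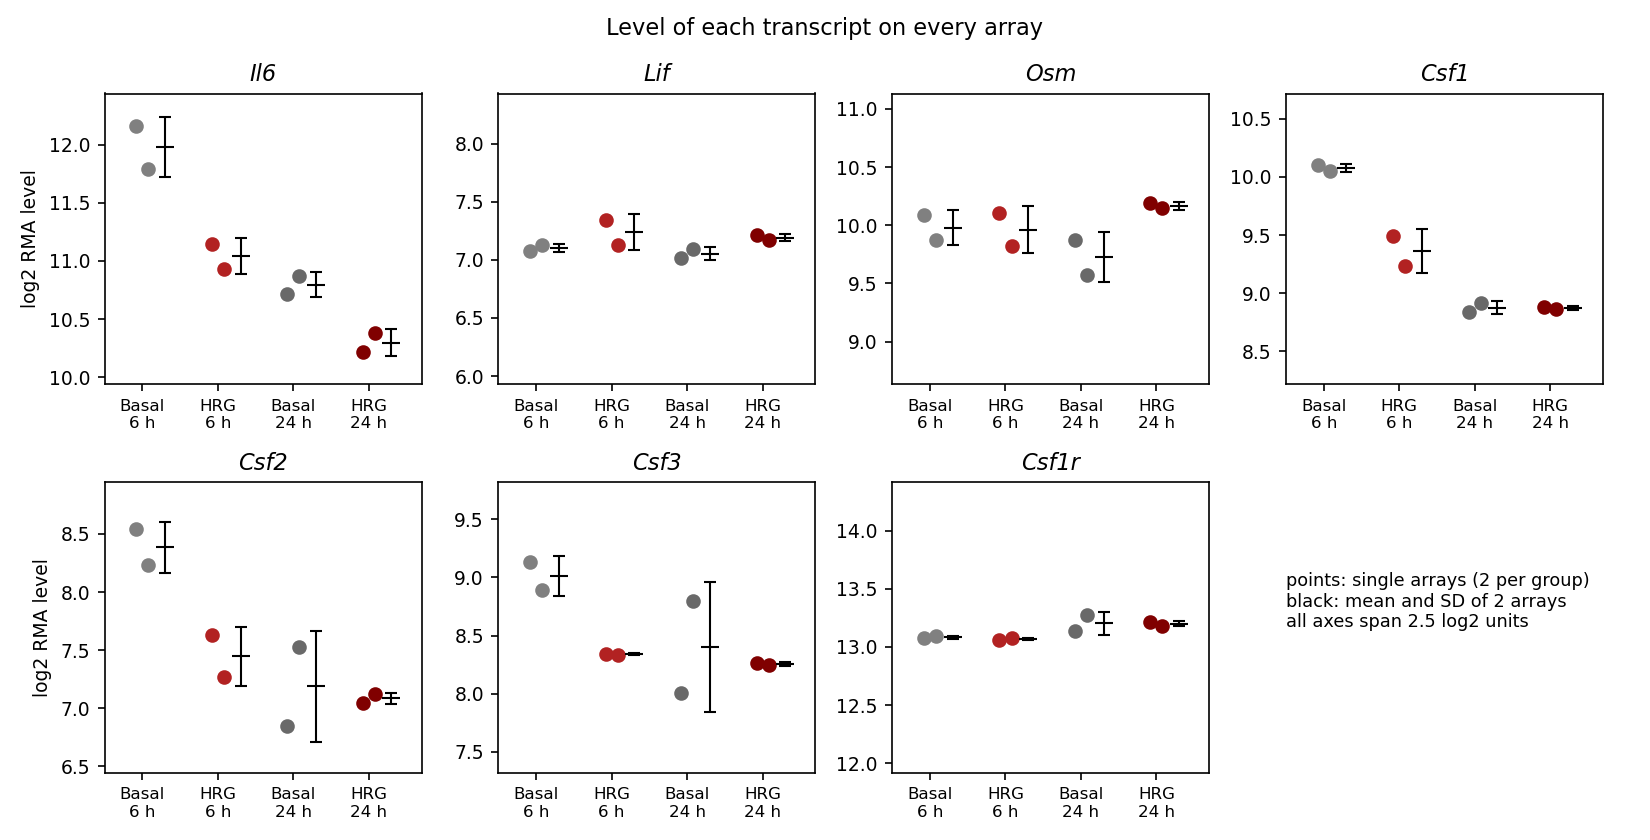
Level of each of the 7 transcripts (log2 RMA value, vertical axis) on every array, by group (horizontal axis); points are single arrays, and black marks are the mean and SD of 2 arrays. Every panel spans the same number of log2 units: Il6 steps down from 12.16 in the highest Basal 6 h array to 10.22 in the lowest HRG 24 h array, Csf1 and Csf2 are highest in Basal 6 h samples, and Csf1r stays between 13.06 and 13.27.

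The promoters of the 3 genes that fell together at 6 h were read from RefSeq (assembly GRCm38.p6), from 250 bases before to 50 after the start of the gene. The reference promoter table held 4 of the 7 members. The sequences are shown 5′ to 3′ on the strand of the gene, with capitals marking every match, on either strand, to any of 6 motifs. Searched were the NF-κB consensus, AP-1 (TGANTCA, which reads alike on both strands), the CRE half-site (CGTCA), a C/EBP motif (TTGCNCAAT), the TATA box (TATAAA) and the PU.1 core (GAGGAA). The windows are chr5:30012864-30013163 on the plus strand for Il6, chr3:107760420-107760719 on the minus strand for Csf1 and chr11:54249850-54250149 on the minus strand for Csf2.
Il6: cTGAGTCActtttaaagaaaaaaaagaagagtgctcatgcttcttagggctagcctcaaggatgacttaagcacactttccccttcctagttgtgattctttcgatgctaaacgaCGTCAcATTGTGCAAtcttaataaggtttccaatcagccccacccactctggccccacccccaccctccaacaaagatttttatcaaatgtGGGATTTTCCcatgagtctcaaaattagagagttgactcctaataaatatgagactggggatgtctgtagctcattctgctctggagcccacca
Csf1: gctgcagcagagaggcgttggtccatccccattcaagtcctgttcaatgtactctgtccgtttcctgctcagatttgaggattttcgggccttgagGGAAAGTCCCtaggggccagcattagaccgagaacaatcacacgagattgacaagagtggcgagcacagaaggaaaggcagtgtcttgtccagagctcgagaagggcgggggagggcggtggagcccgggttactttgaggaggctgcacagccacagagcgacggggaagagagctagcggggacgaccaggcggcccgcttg
Csf2: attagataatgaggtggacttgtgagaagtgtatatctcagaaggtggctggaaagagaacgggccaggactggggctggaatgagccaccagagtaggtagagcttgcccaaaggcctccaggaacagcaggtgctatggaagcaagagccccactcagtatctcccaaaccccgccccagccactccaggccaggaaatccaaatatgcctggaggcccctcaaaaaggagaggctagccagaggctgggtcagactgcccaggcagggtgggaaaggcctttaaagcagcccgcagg

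The Il6 window held 4 of the 6 motifs, at positions counted from the start of the gene. An AP-1 match lay at -249 to -243, a CRE half-site at -135 to -131, a C/EBP match on the other strand at -129 to -121, and an NF-κB consensus at -44 to -35. None of these overlapped another. Csf1 had an NF-κB match at -154 to -145 on the other strand and no other. For Csf2 these letters were not in the window. The Lif window, whose transcript did not pass in any comparison, held an NF-κB match at -178 to -169 and an AP-1 match at -228 to -222. Of 32851 reference promoters, 8.46% held the NF-κB consensus, 7.81% AP-1, 20.8% the CRE half-site, 0.624% the C/EBP motif, 13.6% the TATA box and 28.3% the PU.1 core. A match describes the sequence and is neither a bound site nor a cause of the change.

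At 24 h the question was whether HRG and basal cells still differed. No member rose or fell (limma, 0 of 7 at adjusted p under 0.05, 2 of 7 at an unadjusted p under 0.05). Among all genes 2.43% rose and 1.05% fell, and 2531 of 19938 had an unadjusted p under 0.05. The median was -0.0065 over the members and -0.019 over all genes.

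Il6 was again lower with HRG, at 10.72 and 10.87 in Basal 24 h and 10.22 and 10.38 in HRG 24 h samples. The difference was -0.50 ± 0.13 (95% interval -0.79 to -0.21, limma, adjusted p = 0.0716), which did not pass. It passed in 6 of 17 alternatives, with adjusted p = 0.0174 under a variance trend with robust fitting, 0.0393 after renewed quantile normalization, 0.0148 with the 4 compared arrays alone, 0.0236 without either Basal 6 h array and 0.011 with the arrays' lower quartiles as a covariate. Osm read 9.88 and 9.57 without HRG and 10.19 and 10.14 with it. The Osm difference was 0.44 ± 0.13 (1.36-fold higher, limma, adjusted p = 0.109), which did not pass. It passed with the replicate number as a block (adjusted p = 0.034), with a variance trend and robust fitting (0.0397) and with the 4 compared arrays alone (0.044).

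Csf1 was level at 24 h, with 8.83 and 8.92 in basal and 8.88 and 8.86 in HRG samples. Its difference of -0.0033 ± 0.11 had a 95% interval of -0.23 to 0.23. Csf2 read 6.85 and 7.53 in basal and 7.05 and 7.12 in HRG samples (-0.10 ± 0.19, adjusted p = 0.933). Csf3 read 8.01 and 8.80 against 8.27 and 8.24 (-0.15 ± 0.19, adjusted p = 0.883). For both genes the HRG pair lay between basal replicate 1, the lower, and basal replicate 2. Without basal replicate 1 the 24 h difference was -0.44 for Csf2 and -0.54 for Csf3, the latter with adjusted p = 0.0438. Without basal replicate 2 it was 0.23 for Csf2 and 0.25 for Csf3. The direction at 24 h thus turned with the basal array kept for both genes. Lif read 7.01 and 7.09 in basal and 7.21 and 7.17 in HRG samples (0.14 ± 0.10, limma, adjusted p = 0.717). These Lif and Csf2 values lay near the array medians of 7.18 to 7.29. How far rows at that level can show a difference was not tested. Csf1r read 13.14 and 13.27 against 13.21 and 13.18 (-0.0065 ± 0.093, 95% interval -0.21 to 0.20).

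**Figure D2:**
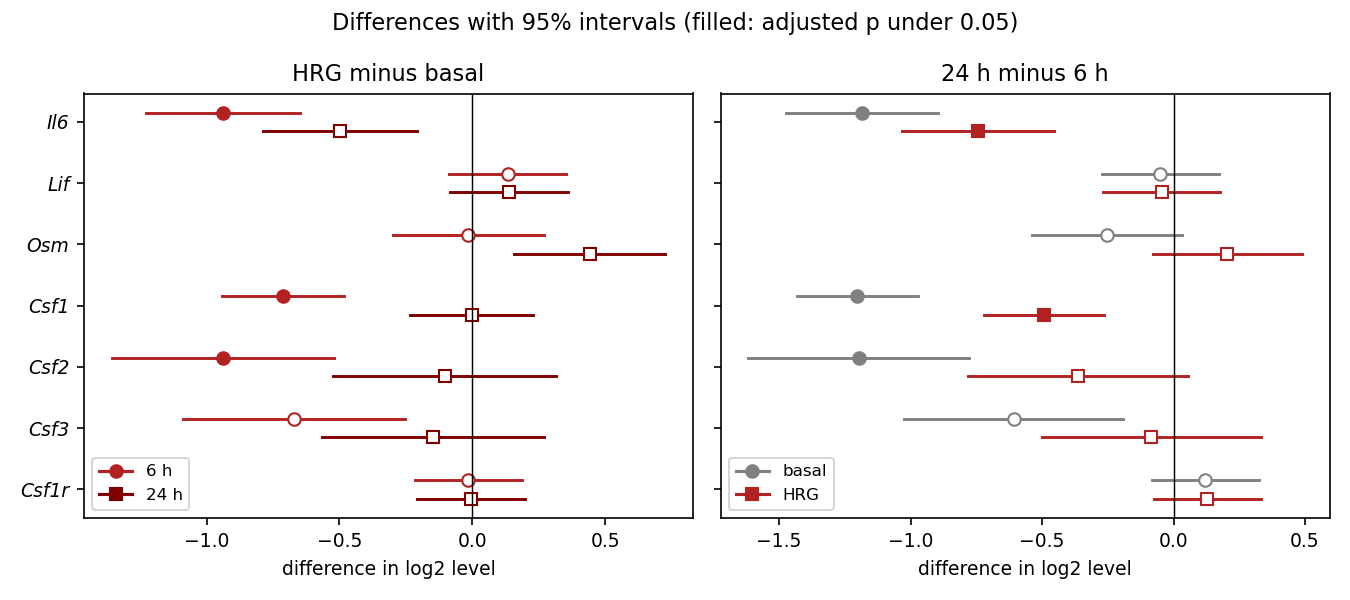
Differences of the 7 transcripts in log2 level (horizontal axes) with 95% intervals: left, HRG minus basal at 6 h (circles) and 24 h (squares); right, 24 h minus 6 h in basal (circles) and HRG samples (squares). Filled symbols have an adjusted p under 0.05: Il6, Csf1 and Csf2 at 6 h on the left, the same 3 genes in basal samples and Il6 and Csf1 in HRG samples on the right.

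The change of the HRG effect between the times was tested directly, as the 24 h difference minus the 6 h difference. Csf1 was the 1 member that passed, at 0.71 ± 0.15 (95% interval 0.38 to 1.03, limma, adjusted p = 0.0391). Of all genes, 1.02% passed upward and 0.451% downward. For Csf1 this difference of effects joins a value of -0.71 at 6 h with one of -0.0033 at 24 h. In the same test 4 of 5 B cell markers, 1 of 6 T and NK cell markers and 1 of 6 mast cell markers also passed upward, with list medians of 0.87, 0.46 and 0.55. For HRG against basal at 24 h these lists had medians of 0.49, 0.18 and 0.43, where Csf1 had -0.0033. The part of these cells in the Csf1 value was not tested. The Csf1 call was lost in 8 of 16 alternatives: testing every row (adjusted p = 0.0708) and leaving out an array other than HRG 6 h replicate 1. Without Basal 6 h replicate 1 it was 0.69 (adjusted p = 0.09), and without replicate 2 it was 0.73 (0.0521). Without Basal 24 h replicate 1 it was 0.67 (0.0867), and without replicate 2 it was 0.75 (0.0923). Without HRG 6 h replicate 2 it was 0.58 (0.192). Without HRG 24 h replicate 1 it was 0.70 (0.182), and without replicate 2 it was 0.72 (0.11).

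No other member passed that test. Csf2 gave 0.83 ± 0.27 (adjusted p = 0.214), Csf3 0.52 ± 0.27 (0.534), Osm 0.46 ± 0.18 (0.361) and Il6 0.44 ± 0.19 (0.406). Without Basal 24 h replicate 2, Csf2 gave 1.17 and Csf3 0.92, both with adjusted p = 0.0368. Lif and Csf1r had values of 0.0046 and 0.0082. The median over the 7 was 0.46, against -0.031 over all genes.

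Culture time without HRG was the next comparison. Il6, Csf1 and Csf2 fell between 6 h and 24 h in basal samples and no member rose, while 5.48% of all genes fell and 3.80% rose. This comparison uses the same Basal 6 h arrays as the 6 h comparison with HRG, so the 2 sets of values are not independent. Of the 8 macrophage markers, Mertk and Cd14 rose with culture time and Fcgr1 and Gata6 fell. Of these calls only that of Mertk held with each array left out in turn. Markers of some other cells fell as well, while the eosinophil marker Ccr3 rose. All 5 measured B cell markers fell (median -0.84, from -1.10 to -0.47), though 3 without Basal 24 h replicate 2. All 6 mast cell markers had values below 0 (median -0.40), and 2 of them, Mcpt4 and Cma1, fell, or 1 without Basal 24 h replicate 1. Of the T and NK cell markers 0 of 6 passed in limma (0 at an unadjusted p under 0.05). The part of these cells in the falls of the cytokines was not tested. Il6 changed by -1.18 ± 0.13 (2.27-fold lower, adjusted p = 0.000187), Csf1 by -1.20 ± 0.11 (2.30-fold, adjusted p = 3.31e-05) and Csf2 by -1.20 ± 0.19 (2.29-fold, adjusted p = 0.00193). All 3 calls held in 17 of 17 alternatives. For Csf2 the value ran from -1.54 to -0.86 when arrays were left out. Csf3 changed by -0.61 ± 0.19 (adjusted p = 0.0734), and by -1.002 with adjusted p = 0.00104 without Basal 24 h replicate 2. Osm (-0.25 ± 0.13), Lif (-0.05 ± 0.10) and Csf1r (0.12 ± 0.093) did not pass.

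With HRG, Il6 and Csf1 fell between 6 h and 24 h. Il6 fell by 0.74 ± 0.13 (1.67-fold, adjusted p = 0.00509) and Csf1 by 0.49 ± 0.11 (1.41-fold, adjusted p = 0.0142). Across all genes 2.87% fell and 4.41% rose with time under HRG. The Il6 call was lost without HRG 6 h replicate 1 (-0.63, adjusted p = 0.0684) and without HRG 24 h replicate 1 (-0.66, adjusted p = 0.0642). The Csf1 call was lost without HRG 6 h replicate 1 (-0.36, adjusted p = 0.181) and without HRG 24 h replicate 1 (-0.50, adjusted p = 0.0814) or replicate 2 (-0.48, adjusted p = 0.1). Csf2 (-0.36 ± 0.19, adjusted p = 0.353), Csf3 (-0.08 ± 0.19), Osm (0.20 ± 0.13), Lif (-0.05 ± 0.10) and Csf1r (0.13 ± 0.093) did not pass. Of the B cell markers 0 of 5 passed with time under HRG (median 0.19), unlike in basal samples. Cd3e and Cd3g of the T and NK cell list (median 0.47) and Cpa3 and Fcer1a of the mast cell list (median 0.03) rose. So did the macrophage markers Itgam, Mertk and Cd14. These calls were lost without HRG 6 h replicate 1. Of the other marker lists only the endothelial gene Cdh5 passed, and it fell. The part of these cells in the falls of Il6 and Csf1 was not tested. How far the time effect differs with and without HRG is the same quantity as the difference of effects given above.

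Ordered by group, Il6 ran from Basal 6 h through HRG 6 h and Basal 24 h to HRG 24 h, a span of 3.86-fold between its highest and lowest arrays. HRG 6 h and Basal 24 h were not tested against each other. Csf1 had the order Basal 6 h, HRG 6 h and then both 24 h groups, which overlapped (span 2.40-fold). Csf2 was highest in Basal 6 h, and the other 3 groups overlapped in part (span 3.23-fold). Csf3 was highest in Basal 6 h as well (span 2.18-fold), Osm in HRG 24 h (span 1.53-fold). Lif spanned 1.26-fold and Csf1r 1.16-fold over the 8 arrays.

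**Figure D3:**
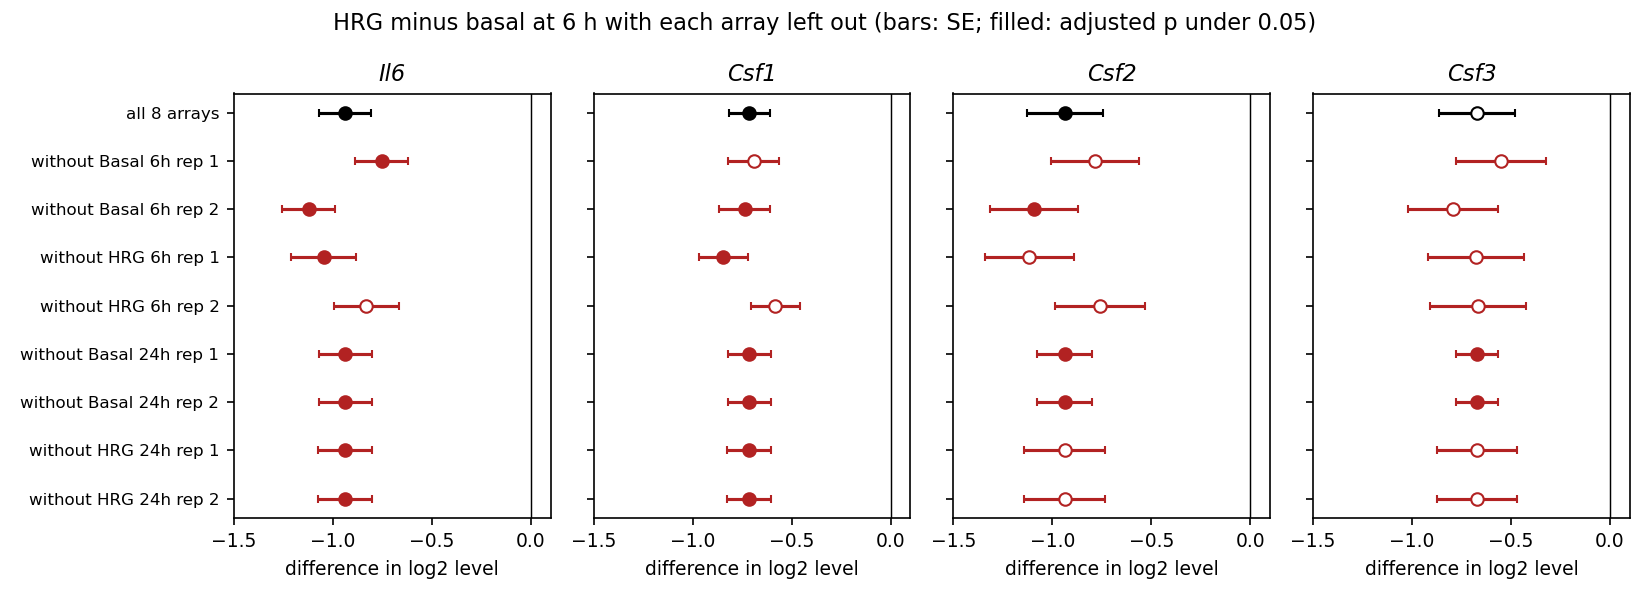
HRG minus basal at 6 h in log2 level (horizontal axis) for Il6, Csf1, Csf2 and Csf3, with all 8 arrays (black) and with each array left out in turn (red); bars are standard errors, and filled circles have an adjusted p under 0.05. Every value lies below 0, but Il6 loses its call without HRG 6 h replicate 2, Csf1 also without Basal 6 h replicate 1, and Csf2 keeps its call in 3 of the 8 fits.

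The profiles most like those of the members that fell were found by the root mean square difference of centred log2 levels over the 8 arrays, among 17041 named genes. Closest to Il6 were Acot6, an acyl-CoA thioesterase (0.12), Cyb5r1, a cytochrome b5 reductase (0.12), and Plcxd2 (0.14). Closest to Csf1 were Gadd45b, a stress-induced growth arrest gene (0.079), Ern1, the unfolded protein sensor IRE1 (0.10), and Vcam1, an adhesion molecule (0.11). For Csf2 they were Il12b, the p40 subunit of IL-12 and IL-23 (0.15), Cd200, an inhibitory ligand (0.16), and Ppp1r15a, a phosphatase subunit of the stress response (0.16). The members' own standard deviations over the 8 arrays were 0.67 for Il6, 0.53 for Csf1 and 0.59 for Csf2.

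Genes around the members were read from 10 pathway lists, which hold 80 measured genes other than the members. At 6 h, 1 of the 80 rose, 1 fell and 78 did not pass, with 22 at an unadjusted p under 0.05. Over all genes 0.431% rose and 0.818% fell, and 2194 of 19938 had an unadjusted p under 0.05. Without either HRG 6 h array both counts were 0, and without Basal 6 h replicate 1 or either HRG 24 h array 0 fell. At 24 h, 11 rose, 2 fell and 67 did not pass, with 27 at an unadjusted p under 0.05. Over all genes 2.43% rose and 1.05% fell there, and 2531 of 19938 had an unadjusted p under 0.05. The rises at 24 h were 5 without HRG 24 h replicate 1, 7 without its replicate 2 and 6 without Basal 24 h replicate 2, and 0 fell in each of these fits. List medians below stand against 0.019 at 6 h and -0.019 at 24 h over all genes.

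The receptors and the other ligands gave 0 calls for HRG at either time. Of the other IL-6 family ligands, 5 of 7 were measured, with medians of -0.25 and -0.05 at 6 h and 24 h and 3 and 0 genes at an unadjusted p under 0.05. Of the IL-6 family receptors, 6 of 7 were measured, 1 and 2 of them at an unadjusted p under 0.05. Il6st, the shared chain gp130, had -0.26 ± 0.096 at 6 h (adjusted p = 0.317), Il6ra, the IL-6 binding chain, 0.18 (0.613), and Lifr, the LIF receptor, 0.41 ± 0.13 at 24 h (0.153). Osmr, the receptor chain for oncostatin M, had -0.16 at 6 h and 0.27 at 24 h. For the 5 receptor chains of Csf2, Csf3 and Il3, 0 had an unadjusted p under 0.05 at either time: Csf2ra, the GM-CSF binding chain, had 0.18 at 6 h and Csf2rb, the signalling chain, -0.03. Il34, the second ligand of Csf1r, had 0.07 at 6 h and 0.01 at 24 h, in a list of 7 other growth factors and receptors with 2 and 1 unadjusted p under 0.05.

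The 13 JAK-STAT signalling and feedback genes gave 0 calls at 6 h (1 with an unadjusted p under 0.05) and 3 rises at 24 h. Socs2 rose by 0.71 ± 0.14 (adjusted p = 0.0125), Cish by 0.42 ± 0.10 (0.0435) and Ptpn6, the phosphatase SHP-1, by 0.37 ± 0.091 (0.0452). Socs2 and Cish are feedback inhibitors that STAT5 induces. The Socs2 call was lost without Basal 24 h replicate 2 (0.51) or either HRG 24 h array (0.65 and 0.77), and those of Cish and Ptpn6 without any 1 of the 6 arrays outside Basal 6 h (0.35 to 0.50 and 0.34 to 0.41). Both were also lost after median centring and with all rows tested, and that of Ptpn6 with the replicate number as a block (0.37) and with the 4 compared arrays alone. Stat3, the main transducer of IL-6, had -0.02 at 6 h and 0.10 at 24 h. Socs3, the feedback inhibitor of gp130, read 10.81 on both Basal 24 h arrays and 11.14 and 11.15 on the HRG 24 h arrays (0.34, adjusted p = 0.0802).

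The 12 STAT3 targets had 0 calls at 6 h (1 with an unadjusted p under 0.05) and 2 at 24 h. Timp1, an inhibitor of matrix metalloproteinases, read 8.58 and 8.61 in Basal 24 h against 9.61 and 9.47 in HRG 24 h samples. It rose by 0.94 ± 0.093 (1.92-fold, adjusted p = 0.000197), and its 6 h difference was 0.0030. The NF-κB cofactor Bcl3 rose by 0.42 ± 0.096 at 24 h (adjusted p = 0.031), a call lost without any 1 of the 6 arrays outside Basal 6 h (0.36 to 0.48).

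Of the 10 targets of GM-CSF and STAT5, 0 passed at 6 h (5 with an unadjusted p under 0.05) and 4 rose at 24 h. Csf2 itself had -0.10 at 24 h, a value whose sign turned with the basal array kept. Its part in these rises was not tested. The list's median at 24 h was 0.41. Ccl24, an eosinophil chemoattractant, read 8.04 and 7.66 in Basal 24 h and 9.56 and 8.95 in HRG 24 h samples (1.41 ± 0.18, 2.65-fold, adjusted p = 0.000978). Itgax, the integrin CD11c, read 6.96 and 6.76 against 7.90 and 7.81, a 1.99-fold rise (adjusted p = 0.000392). The other 2 were Socs2 and Cish. The 24 h calls of Timp1, Ccl24 and Itgax held in 17 of 17 alternatives.

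Transcription factors of Il6 and Csf2 gave 0 calls of 14 at 6 h, 5 of them with an unadjusted p under 0.05, and a median of -0.16. Of the 14, 10 had values below 0, and the highest value was that of Fos at 0.28. The lowest were those of Relb, an NF-κB subunit, at -0.40 (adjusted p = 0.0874), Nfkbiz, a cofactor needed for Il6 induction, at -0.36 (0.193) and Rela at -0.35 (0.226). At 24 h the AP-1 gene Fos rose with HRG from 8.45 and 8.52 to 9.46 and 9.40 (0.94 ± 0.095, 1.92-fold, adjusted p = 0.00022), in 17 of 17 alternatives. Fosl1 (-0.77 ± 0.16, adjusted p = 0.0174) and Atf3, a stress-induced repressor (-0.58 ± 0.11, adjusted p = 0.0133), fell. Both of these calls were lost without Basal 24 h replicate 2 (-0.48 and -0.42) or either HRG 24 h array (-0.85 and -0.70 for Fosl1, -0.54 and -0.63 for Atf3).

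Among 7 measured transcription factors of Csf1r, Cebpa rose at 6 h from 9.76 on both basal arrays to 10.54 and 10.39 (0.71 ± 0.10, adjusted p = 0.00826), while Csf1r differed by -0.01. That call was lost without either HRG 6 h array (0.63 and 0.78). Ets2 fell by 0.59 ± 0.11 (adjusted p = 0.0264), and its call was lost with all rows tested and without Basal 6 h replicate 1 (-0.54), HRG 6 h replicate 1 (-0.68) or 2 (-0.50) or either HRG 24 h array (-0.59). Maf, a factor of resident macrophages, read 9.74 and 9.91 in Basal 24 h and 11.16 and 10.82 in HRG 24 h samples and rose 2.25-fold (1.17 ± 0.12, adjusted p = 0.000249), in 17 of 17 alternatives.

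The 9 genes of cytokine mRNA decay gave 0 calls at 6 h (2 with an unadjusted p under 0.05), when their differences ran from -0.36 to 0.20 around a median of 0.01. At 24 h Zfp36l1 rose by 0.84 ± 0.13 (adjusted p = 0.00372), which was lost without HRG 24 h replicate 1 (0.76). Zfp36, the destabilizing protein tristetraprolin, rose by 0.49 ± 0.092 (adjusted p = 0.0108), lost without any 1 of the 4 arrays at 24 h (0.46 to 0.52).

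With culture time in basal samples, 3 of the 80 genes rose and 19 fell, where 3.80% of all genes rose and 5.48% fell. The falls were 6 without Basal 6 h replicate 1, 8 without Basal 24 h replicate 1, 11 without Basal 6 h replicate 2 and 12 without Basal 24 h replicate 2. Calls that held in 17 of 17 alternatives were those of Irf4, a factor of alternative activation (-1.46 ± 0.12), Timp1 (-1.10 ± 0.093), Maf (-0.77 ± 0.12), Jak2 (-0.70 ± 0.094) and Mcl1, a survival factor (0.63 ± 0.097). With HRG, 7 rose and 2 fell with time, where 4.41% of all genes rose and 2.87% fell. Without any 1 of the 4 HRG arrays 4 rose, and 1 fell, or 0 without HRG 6 h replicate 1. The falls were 4 without either Basal 6 h array and 5 without either Basal 24 h array. The calls that held in 17 of 17 alternatives were those of Ccl24 (1.91 ± 0.18), Socs2 (0.81 ± 0.14) and Mcl1 (0.62 ± 0.097).

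**Figure D4:**
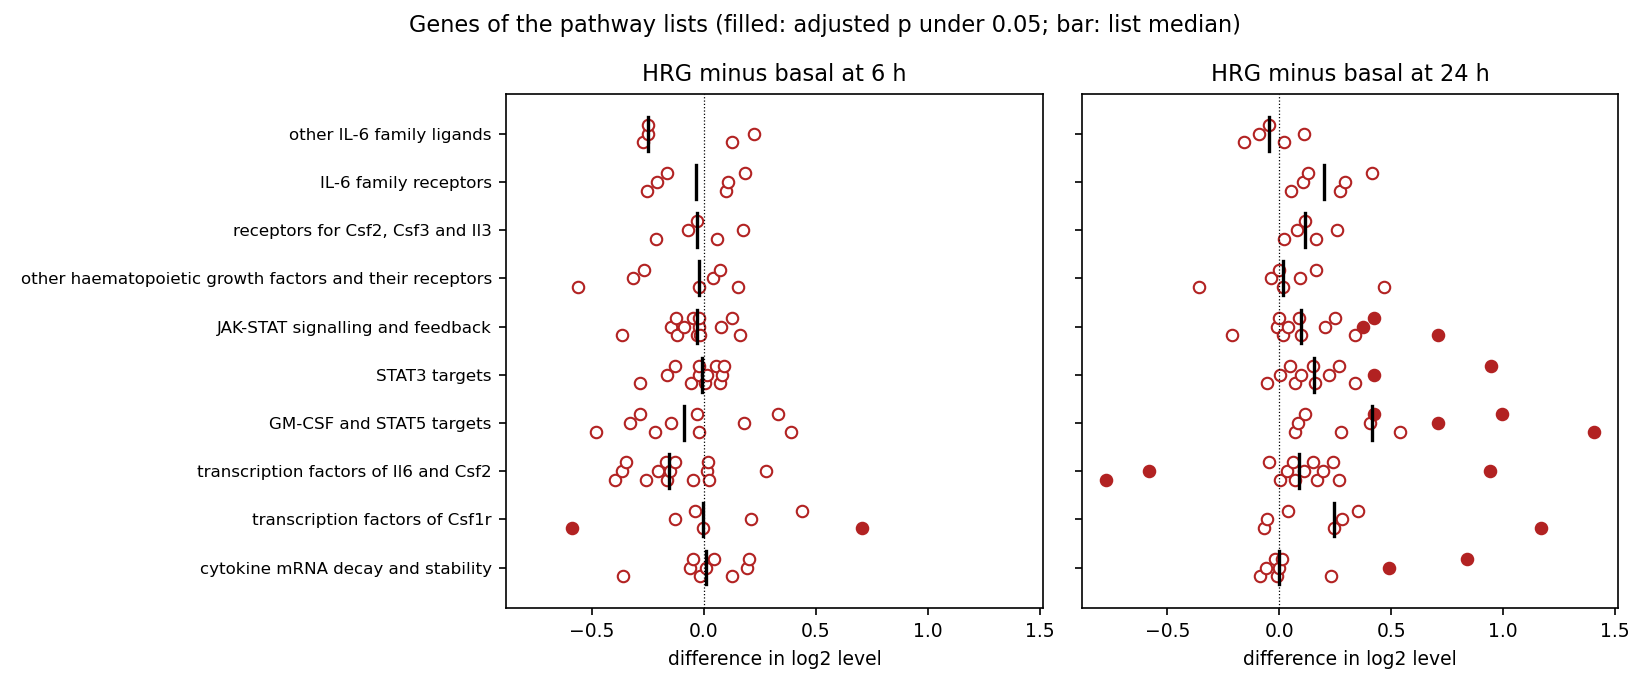
Differences between HRG and basal samples in log2 level (horizontal axes) at 6 h (left) and 24 h (right) for the genes of 10 pathway lists; each circle is a gene, filled where its adjusted p was under 0.05, and black bars are list medians. At 6 h only Cebpa and Ets2 are filled, and at 24 h the largest rises are Ccl24, Maf, Itgax, Timp1 and Fos.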

How the data were processed

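Total RNA of 8 samples was hybridised to Affymetrix arrays. Values were deposited on a log2 scale, and per the submitters' processing notes the authors used Affymetrix Expression Console, RMA and limma, with versions and genome build not given in the sources used here. Per the labels' protocols, 250 ng of RNA per sample was amplified. Of 28853 rows, 21789 had 1 gene symbol in the platform annotation, 1621 had several and 5443 had none; the latter 2 kinds were left out. Where a gene had several rows (999 genes), its brightest by mean was kept. Symbols were compared by gene ID with RefSeq (GRCm38.p6): 19856 matched and 0 changed.

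Group means were fitted over all 8 arrays in R 4.3.3 with limma 3.58.1 (4 residual and 7.81 prior degrees of freedom). Tests were two-sided and p-values adjusted by Benjamini-Hochberg over 19938 genes in each of 5 comparisons. The fit was tested on simulated data. The members, the 10 pathway lists, the 8 marker lists (136 of 144 entries measured over all lists) and the tests were chosen with earlier results of these data known. Named are all 7 members, in each list up to 3 genes past the threshold with the largest difference in each direction for HRG against basal, and the 3 closest profiles of each member that passed; for culture time only those pathway genes whose call held in every alternative are named, a limit set after the values were seen. Marker genes, and list genes that did not pass or passed in the difference of effects, were also named after their values were seen. A summed level is the log2 of summed linear values. All 7 members lay above the level under which the dimmest 30% of genes were left out as an alternative. Other alternatives were the replicate block, a variance trend with robust eBayes, renewed quantile normalization, median centring, the mean of a gene's rows, all rows tested, only the arrays compared, each array left out, and, added after seeing the data, the arrays' lower quartiles as a covariate.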

Additional observations from a re-analysis of the deposited data

Results flagged for a closer look

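The effect of HRG on 12 of the genes measured as members, pathway genes or cell markers differed between 24 h and 6 h in the test of that difference (limma, adjusted p under 0.05, n = 2 arrays per group). They came from the 7 members, 80 other pathway genes and the measured markers of 8 lists. Over all genes 294 of 19938 passed in that test. Among the members Csf1 alone passed, at 0.71 in log2 units, with a lower level under HRG at 6 h and a difference near 0 at 24 h. Timp1 differed by 0.94, Irf4 by 0.89, Fos by 0.67 and Bcl2l1, the survival gene Bcl-xL, by 0.60, all upward, and Cebpa by -0.76. The call for Timp1 held in 16 of 16 alternatives. The other 5 were lost with all rows tested and without most single arrays. For Csf1 the exception was HRG 6 h replicate 1 (0.58 to 0.84 with each array left out in turn), and for Fos (0.60 to 0.74) and Bcl2l1 (0.56 to 0.65) it was Basal 6 h replicate 2. The exceptions were Basal 6 h replicate 2 and HRG 24 h replicate 2 for Irf4 (0.72 to 1.05), and Basal 6 h replicate 2 and Basal 24 h replicate 1 for Cebpa (-0.84 to -0.68).

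The remaining 6 were markers of other cells, all upward. Csf1 shared that sign but had HRG differences of -0.71 at 6 h and -0.0033 at 24 h. The list medians at these times were -0.36 and 0.49 for B cells, -0.42 and 0.18 for T and NK cells and -0.08 and 0.43 for mast cells. The B cell genes Cd79a, Cd79b, Ms4a1 and Pax5 differed by 1.20, 0.87, 1.17 and 0.86, the T cell gene Cd3g by 1.48 and the mast cell gene Cpa3 by 1.22. Each of these calls was lost without either HRG 6 h array or HRG 24 h replicate 1. Those of Cd79b, Pax5 and Cd3g were also lost without HRG 24 h replicate 2. Leaving out Basal 24 h replicate 2 ended the 4 B cell calls, and leaving out its replicate 1 ended that of Cpa3. Without Basal 6 h replicate 1 the calls of Pax5 and Cpa3 were lost, and without replicate 2 those of Cd79b and Cd3g. Over all these fits Cd79a ran from 0.97 to 1.44, Cd79b from 0.71 to 1.03, Ms4a1 from 0.95 to 1.397, Pax5 from 0.68 to 1.03, Cd3g from 1.03 to 1.93 and Cpa3 from 0.94 to 1.502.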

How the results depend on the processing

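For the 7 members, 588 values were recomputed under 17 alternatives: 528 kept their direction and side of the threshold, 23 lost the call, 16 gained one and 21 turned in sign, none of them past the threshold in either fit. Signs turned for Osm at 6 h (0.0191 after renewed quantile normalization, 0.0111 with the lower quartile as a covariate, -0.16 to 0.12 with arrays left out) and Csf1 at 24 h (0.0023 when median centred, -0.044 to 0.037 with arrays left out). They also turned with the lower quartile covariate for the difference of effects of Lif (-0.0227; -0.11 to 0.11 with arrays left out) and Csf1r (-0.0135; -0.061 to 0.078). With arrays left out, 24 h differences ran from -0.44 to 0.23 for Csf2, -0.54 to 0.25 for Csf3 and -0.076 to 0.063 for Csf1r, and the Lif time difference under HRG from -0.16 to 0.065. Of the members, 3 fell at 6 h (0 to 4 with arrays left out). At 24 h, 1 rose under the replicate block, under trend and robust fitting and with only the arrays compared, and 1 fell under trend and robust fitting, quantile normalization, only the arrays compared and the lower quartile covariate (0 to 1 with arrays left out). For the difference of effects 1 passed, 0 with all rows tested (0 to 2 with arrays left out), and 2 fell with time under HRG (0 to 2). The cause of these changes was not tested. An arm left with 1 array was assumed to vary like the others.

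Replicate numbers share only a number: deviations of same-numbered arrays correlated from -0.33 to 0.41 over 6 pairs of groups, 3 of them over 0.1. Under the replicate block Osm at 24 h passed (0.44, adjusted p = 0.034) and no other call on a member changed. Counts over all genes moved more. At 6 h, 86 rose and 163 fell (10 to 103 and 11 to 184 with arrays left out, 45 to 228 and 89 to 312 otherwise). At 24 h, 485 rose and 209 fell (110 to 536 and 72 to 252, 471 to 670 and 186 to 453). For the difference of effects 204 and 90 passed (28 to 265 and 28 to 139, 105 to 392 and 63 to 215). With time, 758 rose and 1093 fell in basal samples (373 to 684 and 600 to 1133, 514 to 1149 and 786 to 1390), and 880 and 572 under HRG (390 to 985 and 139 to 695, 776 to 1261 and 474 to 1257).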
